A study of Homo sapiens with 12 samples.

Results

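The ATP-binding cassette (ABC) transporters were followed in BT474 cells, a HER2-amplified luminal breast cancer cell line, from the untreated state to acquired resistance to lapatinib, a small molecule that blocks the kinase activity of HER2 and EGFR. Members were taken by name, as every gene of the expression table whose symbol is ABC, a subfamily letter from A to G and a number, and this gave 46 of the 26485 genes. They comprised 12 genes of subfamily A, 9 of B, 12 of C, 4 of D, 1 of E, 3 of F and 5 of G. One of them, ABCC13, is annotated as a transcribed pseudogene. Messenger RNA was sequenced from 12 libraries in 4 groups of 3. Control cells were wild type BT474 at day 0. DTP (drug-tolerant persister) cells were BT474 after 9 days with 1 µM lapatinib renewed every 3 days, DTEP (drug-tolerant expanding persister) cells after 6 months, and LR (long-term resistant) cells, labelled Resistant, after 9 months. The treatment field of the Control libraries also names lapatinib, but their titles give them as Control at day 0, and they were read as untreated.

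The labels give all groups as BT474 in RPMI with 10% fetal bovine serum. No genotype was read here, and whether the DTEP and LR cultures were wholly BT474 was not tested. No untreated culture of the later times was analysed here, so time in culture and lapatinib cannot be told apart. The study describes its replicates as parallel plates and elsewhere as technical replicates. The n given is therefore a number of libraries, and a p-value measures the spread between them.

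ABC proteins share a cytoplasmic domain that binds and hydrolyses ATP, and in most members a pair of such domains drives a substrate across a membrane through paired transmembrane domains. Subfamily A moves lipids, B holds the multidrug exporter ABCB1 and carriers of mitochondria and lysosomes, C holds the multidrug resistance-associated proteins, D serves peroxisomes and lysosomes, and G exports sterols and drugs. Subfamilies E and F have no transmembrane domain and act on ribosomes. In tumours the family is best known for ABCB1, ABCC1 and ABCG2, which expel many anticancer drugs, and lapatinib itself is known as a substrate and inhibitor of ABCB1 and ABCG2.

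The libraries held 16383363 to 25030482 reads assigned to genes. Values are normalised read counts, that is reads scaled to a common effective library size, and 1 read was worth 0.0412 to 0.0576. Pearson's r between libraries, over log2 values of all tested genes, was 0.997 to 0.998 within Control, 0.983 to 0.996 within DTP, 0.934 to 0.982 within DTEP and 0.971 to 0.984 within LR. DTEP replicate 3 stood apart from its group, with r of 0.934 to 0.962 to the other DTEP libraries and 0.971 to 0.986 to the LR libraries. For 22 of the 31 tested family members (71.0%) its value was nearer to the LR mean than to the mean of the other DTEP libraries, against 73.3% of all 13794 tested genes.

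The defining markers of the line changed with the groups as well. The 11 luminal HER2+ markers summed to 12855 to 13385 in the Control libraries and 15568 to 17837 in the DTP libraries, and to 5300.3 to 7142 (DTEP) and 4819.8 to 6354 (LR) later. The oestrogen receptor ESR1 stood at 150.3, 153 and 149 in the Control libraries and at 93.5, 101 and 122 in DTP. In DTEP it was 16.7, 6.88 and 0.842, and in LR 0.211, 0.0553 and 0.194, so the luminal receptor that marks BT474 was near 0 in the resistant libraries. PGR, the progesterone receptor, fell in the same order, from a mean of 1179 in Control to 147, 60.4 and 11.8 in the DTEP libraries and 2.45 in LR. CDH1, which encodes E-cadherin, had means of 1125, 743, 109 and 75.1 in the 4 groups, and ERBB2 itself, the largest single part of the sum in each group, had means of 6526, 8545, 1627 and 1774. Other luminal markers were higher late: GATA3 had means of 190.3, 454, 1159 and 1251, FOXA1 394, 277, 731 and 799, and EPCAM 205, 143, 330.1 and 246. Of other cell types, the leukocyte marker CD3E and the fibroblast marker THY1 had no read in any group, but other listed markers had reads. The leukocyte markers LYZ and CD68 had means of 1.23, 4.03, 1.06 and 0.228, and of 1.76, 2.38, 2.88 and 1.17, in the 4 groups. The endothelial marker VWF had means of 8.09, 2.10, 0.211 and 0.118. Summed fibroblast markers were 51.3 to 61.7 in Control and 98.4 to 130.4 in LR, nearly all COL1A1. Sums of the 3 basal markers ranged from 4.29 to 5.57 (Control), 0.365 to 1.21 (DTP), 5.79 to 28.8 (DTEP) and 16.5 to 65.6 (LR). Nearly all of this was TP63, with means of 4.94, 0.785, 15.2 and 42.6, while KRT5 and KRT14 were at or near 0. How far cells of other identity entered the DTEP and LR values was not tested, and in bulk RNA a change in the share of cells and a change in RNA per cell cannot be told apart.

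Most of the family was either clearly expressed or silent. In each of the 4 groups 29 of the 46 members (63.0%) had a mean of at least 1, and a mean of at least 100 was reached by 7 members (Control), 6 (DTP), 9 (DTEP) and 8 (LR). No library held a read of ABCD2, a peroxisomal transporter, or of ABCG5, an intestinal and hepatic sterol exporter. The 31 members that reached a value of 1 in 3 or more libraries were tested. The 15 that were not tested are ABCA6, ABCA8, ABCA9 and ABCA13, ABCB1, ABCB4, ABCB5 and ABCB11, ABCC9 and ABCC13, ABCD2, ABCG2, ABCG4, ABCG5 and ABCG8. A member that is high in a single group passes that filter through this group alone, so the counts that follow describe 31 genes and not the family.

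**Figure D1:**
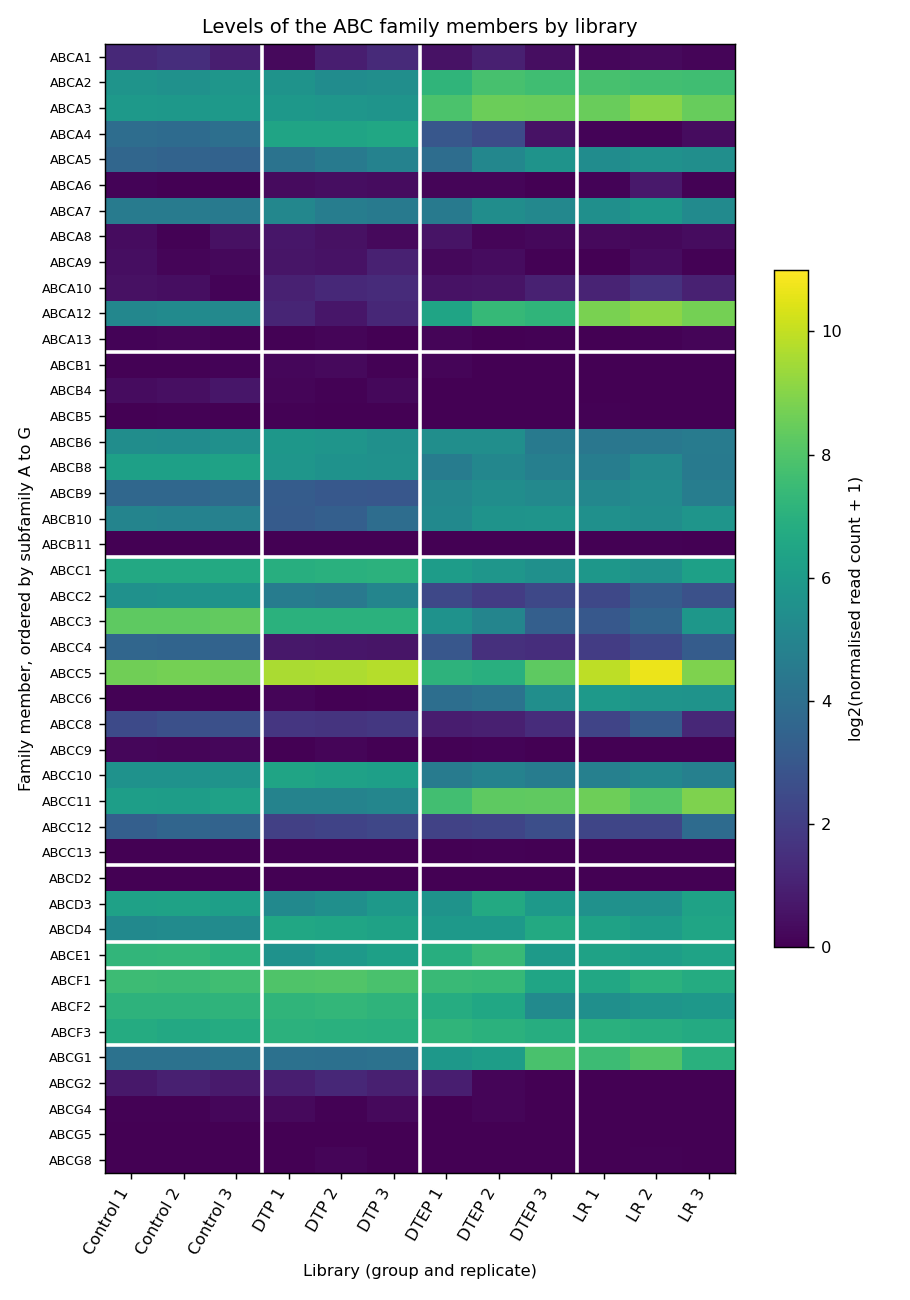
Level of 44 of the 46 members (rows, by subfamily, white lines between them) in each of the 12 libraries (columns), as log2 of the normalised read count + 1. The ABCC5 row brightens in DTP and LR and dims in DTEP, ABCA2, ABCA3, ABCA12 and ABCC11 brighten in DTEP and LR, and the rows of ABCB1, ABCD2 and ABCG5 stay dark throughout.

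Summed over the 46 members, the family had 2117 ± 23.3 normalised read counts in Control (SD, n = 3 as in every group) and 2337 ± 51.03 in DTP. The sums of the later groups were 2296 ± 299.9 for DTEP and 3659.8 ± 697 for LR. All 3 LR libraries, at 3068 to 4427, lay above all others, the highest of which had 2476. The make-up of the sum changed more than its size. Subfamily A, the lipid transporters, made up 9.21%, 10.2%, 30.6% and 32.2% of the sum over Control, DTP, DTEP and LR. Subfamily C made up 47.8%, 52.0%, 26.6% and 42.5%, and within it ABCC5 alone accounted for 18.9%, 35.0%, 8.15% and 26.4%. The ribosome-associated subfamily F went from 20.3% in Control to 7.71% in LR, and subfamily G from 0.856% to 5.08%. Per kilobase of transcript, ABCC5 had the highest level of all members in Control (69.2), DTP (141) and LR (176), and ABCF3 had the highest in DTEP (53.3).

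**Figure D2:**
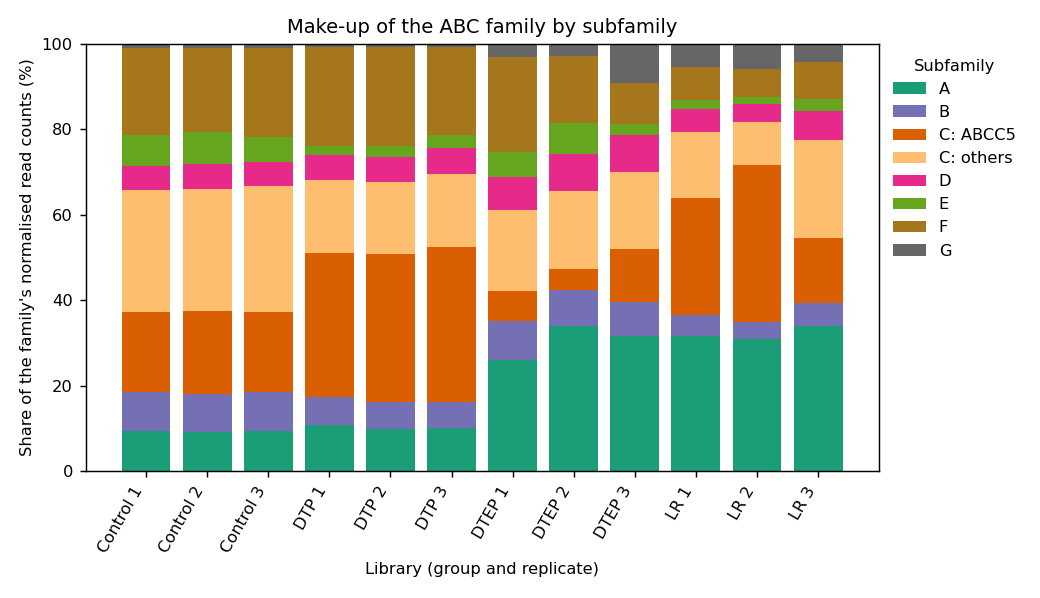
Share of the family's summed normalised read counts (%, vertical axis from 0 to 100) by subfamily in each library, with ABCC5 drawn apart from the rest of subfamily C. The A segment widens from 9.21% in Control to 32.2% in LR, and the ABCC5 segment differs between the LR libraries, from 15.2% to 36.9%.

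Which members changed at each step was asked with limma on log2(value + 1), fitted to all genes. A gene passed at a Benjamini-Hochberg adjusted p below 0.05, and it was called where its absolute log2 change was also above 2. From Control to DTP, 1 member was called higher, ABCA4, and 2 lower, ABCA12 and ABCC4, where 1.01% of all tested genes were called higher and 3.9% lower. At the adjusted p alone 6 members were higher and 10 lower, against 25.2% and 28.8% of all genes. From DTP to DTEP, 9 members were called higher, among them ABCA2, ABCA3, ABCA12, ABCB9, ABCB10, ABCC6, ABCC11 and ABCG1, where 8.13% of all genes were. Another 4 were called lower, namely ABCA4, ABCC2, ABCC3 and ABCC5, where 7.02% of all genes were. ABCA2 (log2 2.06) and ABCB10 (2.05) lay at the edge of that threshold. At the adjusted p alone 12 were higher and 11 lower (35.7% and 32.6% of all genes). DTEP to LR was the quietest step, with ABCC5 called higher (0.225% of all genes) and 0 called lower by limma (0.457% of all genes). There 2 members were lower at an unadjusted p below 0.05. The fits with edgeR and DESeq2 each called 1 lower, ABCA4, beside 510 and 624 of all genes. By limma 3 members passed higher at this step, ABCA12, ABCC5 and ABCC6, and 1 lower, ABCA4 (3.04% and 4.31% of all genes). Without DTEP replicate 3, 8 passed higher and 5 lower, beside 2655 and 3874 of all genes. Without LR replicate 2 no member was called higher, beside 24 of all genes. Between the ends of the series, LR against Control, 7 members were called higher (5.03% of all genes) and 3 lower (7.8%), and 14 passed higher and 12 lower (30.2% and 32.6%).

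At the threshold of 1, members that passed with an absolute log2 change above it numbered 4 higher and 6 lower from Control to DTP, 10 and 7 from DTP to DTEP, 3 and 1 from DTEP to LR, and 11 and 7 for LR against Control. The shares of all genes at that threshold were 9.24% and 15.8%, 22.4% and 19.5%, 1.45% and 2.5%, and 16.9% and 19.6%. The groups' libraries did not overlap for 25, 23, 6 and 27 of the 31 members in the 4 comparisons, against 77.3%, 67.3%, 22.5% and 77.0% of all genes. Median log2 changes of the tested members were -0.14, 0.14, 0.16 and 0.13, beside -0.01, 0.08, -0.07 and -0.03 over all genes. In all, 14 members were called in some comparison and 29 of the 31 passed in some comparison by limma. The exceptions were ABCC8 and ABCF3. By edgeR and DESeq2, ABCC8 passed higher in LR against DTEP (adjusted p = 0.0368 and 0.00411) and ABCF3 higher in DTP (0.0431 and 0.0248). The comparisons share groups (DTP, DTEP, LR and Control each enter a pair of them), so their counts are not independent.

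**Figure D3:**
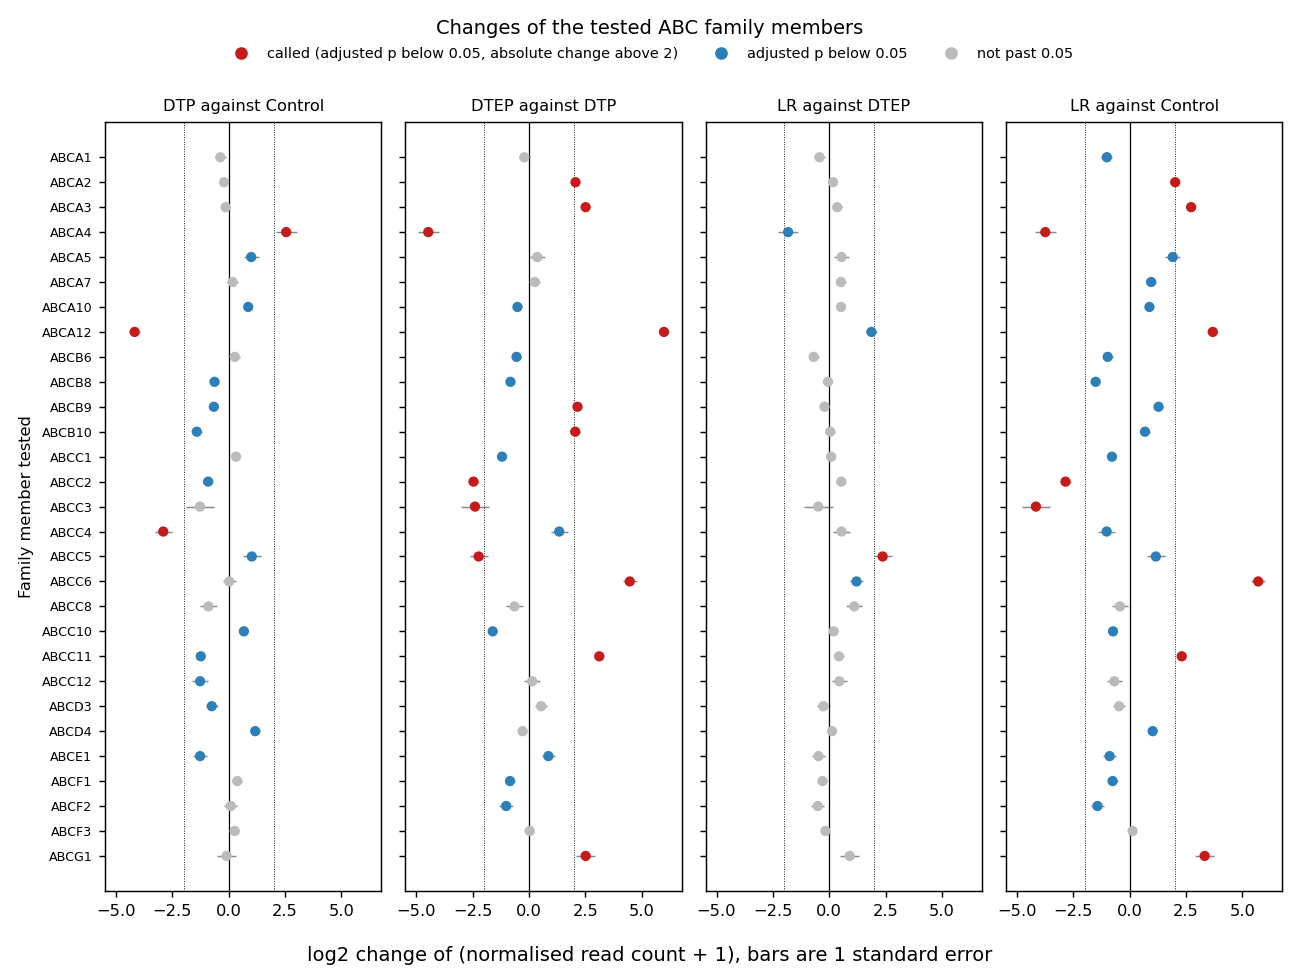
Change of 29 of the 31 tested members (rows) in the 4 comparisons (panels), as log2 change of the normalised read count + 1 with bars of 1 standard error. Dotted lines mark changes of 2 in either direction, red points are called and blue points pass the adjusted p alone. Red points are most frequent for DTEP against DTP (12 of those drawn) and rarest for LR against DTEP (1).

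Of the classical drug exporters ABCB1, ABCG2 and ABCC1, only ABCC1 was clearly expressed. ABCB1, or P-glycoprotein (chromosome 7, 87503017 to 87713295, GRCh38.p14), had 1, 1 and 2 reads in the Control libraries, 3, 4 and 1 in DTP, 2, 0 and 0 in DTEP and 0 in each LR library. These are values of at most 0.197, and a library with 0 reads allows a value of up to 0.124 to 0.173 at 3 reads, which covers counting error only. ABCB1 was therefore at the limit of detection in all groups, and a difference was not detectable at this depth. Its neighbour ABCB4 on the same chromosome, a phosphatidylcholine exporter of bile, had 6, 7 and 13 reads in Control, 2, 1 and 3 in DTP and 0 in all DTEP and LR libraries. Set against a floor of 3 reads per library, ABCB4 was at least 2.88-fold lower in LR than in Control, with an edgeR adjusted p of 0.00125 in a fit without a filter.

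ABCG2, the breast cancer resistance protein (chromosome 4, 88090264 to 88231626), was detected at a low level and then lost. It had 14, 18 and 16 reads in Control, 17, 27 and 17 in DTP, 19, 3 and 0 in DTEP and 0 in all LR libraries. Control and DTP overlapped, the DTEP libraries ran from the Control level to 0, and LR lay below all Control libraries. Against the floor, ABCG2 was at least 5.40-fold lower in LR than in Control, and edgeR without a filter gave adjusted p of 0.00185 for this comparison and 0.0493 for LR against DTEP. The DTEP reads of ABCG2 stood in the same order of libraries as the ESR1 values above, while values of other members, such as ABCC6 and ABCG1, stood in the opposite order. The part of the marker change in this was not tested.

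ABCC1, or MRP1 (chromosome 16, 15949143 to 16143053), was the expressed member of the trio. Its normalised read counts were 99.9, 98.6 and 103 in Control, 119.9, 125 and 135 in DTP, 67.1, 54.2 and 45.0 in DTEP and 55.7, 47.0 and 74.3 in LR. All DTEP and LR libraries lay below all Control and DTP libraries. The DTP change did not pass with all libraries fitted (log2 0.33 ± 0.18 SE, adjusted p = 0.135) but passed with only the 6 libraries compared (adjusted p = 0.0033). The fall from DTP to DTEP passed (-1.19 ± 0.18, adjusted p = 7.51e-05), and LR was 1.7-fold below Control (-0.78 ± 0.18, adjusted p = 0.00207). None of the trio was thus higher in LR than in Control.

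**Figure D4:**
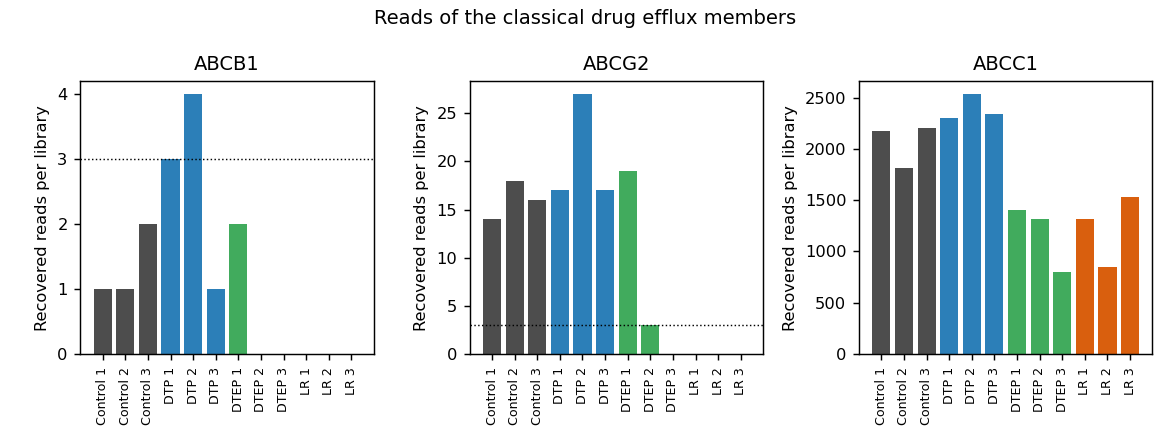
Reads of ABCB1, ABCG2 and ABCC1 in each library (bars from 0, a separate vertical scale for each gene, coloured by group), with the floor of 3 reads dotted for ABCB1 and ABCG2. ABCB1 never exceeds 4 reads, ABCG2 falls from 14 to 27 reads in Control and DTP to 0 in LR, and ABCC1 bars are lower in DTEP and LR.

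The other multidrug resistance-associated proteins moved in different directions. Of the 11 members listed for multidrug efflux 9 were tested, and in LR against Control 3 of them passed higher, ABCC5, ABCC6 and ABCC11, and 5 lower, ABCC1, ABCC2, ABCC3, ABCC4 and ABCC10, where 30.2% of all genes passed higher and 32.6% lower. The bases before the transcription start are shown for ABCC5, ABCC6 and ABCC11 of this subfamily and for ABCA12 of subfamily A, because ABCC5 had the highest level per kilobase in Control, DTP and LR and the others were called higher in LR than in Control. Each run is the 250 bases upstream of the RefSeq start, 5′ to 3′ on the gene's own (minus) strand in GRCh38.p14, with capitals for matches to any of 6 motifs on either strand.
ABCC6 (chr16:16223495-16223744): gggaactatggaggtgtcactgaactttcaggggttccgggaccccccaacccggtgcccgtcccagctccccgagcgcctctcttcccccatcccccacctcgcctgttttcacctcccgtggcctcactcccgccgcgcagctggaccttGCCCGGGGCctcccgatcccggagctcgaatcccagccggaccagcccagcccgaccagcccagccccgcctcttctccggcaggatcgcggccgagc
ABCC11 (chr16:48247540-48247789): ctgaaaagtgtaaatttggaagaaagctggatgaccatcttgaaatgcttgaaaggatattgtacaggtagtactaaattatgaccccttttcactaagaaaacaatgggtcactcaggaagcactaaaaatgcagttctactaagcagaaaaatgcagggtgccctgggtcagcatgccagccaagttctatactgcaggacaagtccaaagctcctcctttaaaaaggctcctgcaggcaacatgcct
ABCC5 (chr3:184017885-184018134): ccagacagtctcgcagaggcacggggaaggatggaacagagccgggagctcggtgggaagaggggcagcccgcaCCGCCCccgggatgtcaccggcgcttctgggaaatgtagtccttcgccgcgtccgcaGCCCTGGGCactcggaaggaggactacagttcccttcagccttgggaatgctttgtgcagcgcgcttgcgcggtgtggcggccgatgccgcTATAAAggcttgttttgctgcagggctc
ABCA12 (chr2:215138627-215138876): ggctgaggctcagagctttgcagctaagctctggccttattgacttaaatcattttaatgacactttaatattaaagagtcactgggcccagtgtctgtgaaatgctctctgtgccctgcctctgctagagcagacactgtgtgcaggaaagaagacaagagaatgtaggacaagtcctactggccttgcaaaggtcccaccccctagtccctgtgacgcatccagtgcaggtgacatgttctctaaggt
The ABCC6 run held 1 match to the AP-2 site, the ABCC5 run 1 match each to the GC box, the AP-2 site and the TATA box, and the ABCA12 and ABCC11 runs none. Shares were taken in windows that also include the 50 bases after the start, for the 35 members with an entry and for 27305 promoters. These 27305 are the full-length windows kept, with a single entry per gene symbol and a whole chromosome left out. They are called all promoters below, but they are not every promoter of the genome. The GC box, searched as GGGCGG, occurred in 18 members (51.4%) and in 44.6% of all promoters. The AP-2 site, searched as GCCNNNGGC, occurred in 11 members (31.4%) and in 23.0% of all. The TATA box, as TATAAA, occurred in 5 members (14.3%) and in 11.95% of all. CCAAT occurred in 6 members (17.1%) and in 35.7% of all. The nuclear receptor half-site, as AGGTCA, occurred in 2 members (5.71%) and in 13.9% of all. The E-box, as CACGTG, occurred in 4 members (11.4%) and in 7.43% of all. Among the 10165 tested genes with a window, the GC box occurred in 69.4%, the AP-2 site in 32.4% and the TATA box in 5.45%. CCAAT occurred in 36.8% of them, the half-site in 9.62% and the E-box in 10.1%. The 35 members include some that were not tested. CG dinucleotides numbered 1 in the windows of ABCA12 and ABCC11, 25 in that of ABCC6 and 26 in that of ABCC5, with a median of 20 over members and 14 over all promoters. These matches describe letters only.

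ABCC5, or MRP5, which exports cyclic nucleotides, is encoded at chromosome 3, 183919934 to 184017884. Its values were 393, 411 and 399 in Control, 777, 805 and 874 in DTP, 138, 123 and 306 in DTEP and 951, 1633 and 465 in LR. It was highest in DTP and LR and lowest in DTEP, and no pair of neighbouring groups overlapped. The rise to DTP was small against the shared spread (log2 1.03 ± 0.40, adjusted p = 0.0465), and it missed the threshold with the replicate block (adjusted p = 0.0678) and without any 1 of the Control or DTP libraries (0.0926 to 0.106). The fall to DTEP was 4.33-fold (log2 -2.23 ± 0.40, adjusted p = 0.000345), and without DTEP replicate 2 it was -1.98 and no longer called. The return in LR was 5.37-fold (2.36 ± 0.40, adjusted p = 0.00906), and it rested on the LR library with 1633: without LR replicate 2 it was 1.93. Without DTEP replicate 2 its adjusted p was 0.0522, and with only the 6 libraries compared 0.266, a setting in which 0 of all genes passed. LR against Control was 2.54-fold higher (1.16 ± 0.40, adjusted p = 0.0234), and without LR replicate 2 the adjusted p was 0.109.

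ABCC6, a liver and kidney exporter known from pseudoxanthoma elasticum, went from silent to expressed. It lies at chromosome 16, 16149565 to 16223494, and its Control and DTP libraries held values of at most 0.104. In DTEP it had 14.9, 17.3 and 42.4, and in LR 59.2, 50.2 and 49.3. Every LR library was above every DTEP library, and DTEP replicate 3 was the nearest to LR. ABCC6 was at least 156-fold higher in DTEP than in DTP (adjusted p = 1.37e-07) and at least 360-fold higher in LR than in Control (adjusted p = 1.73e-08), both against the floor of 3 reads. The further rise from DTEP to LR was 2.13-fold (log2 1.20 ± 0.30, adjusted p = 0.0375) and missed the threshold in 16 of 25 alternatives, while without DTEP replicate 3 it was 1.65. Near-identical pseudogenes exist for part of ABCC6, so its reads are uncertain, and ABCC6P1 and ABCC6P2 held 2 and 1 reads in all 12 libraries together. ABCC1 lies 6511 bases from ABCC6 on the same chromosome, and it fell from DTP to DTEP, where ABCC6 first appeared.

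ABCC11, or MRP8, a lipophilic anion exporter of apocrine glands, was expressed throughout (chromosome 16, 48164819 to 48247539). Its values were 71.5, 69.3 and 76.7 in Control, 29.7, 29.1 and 31.8 in DTP, 199.8, 309 and 317 in DTEP and 379, 271 and 466 in LR. Control and DTP stood apart from each other and from the later groups, and DTEP and LR overlapped. The fall to DTP (log2 -1.23 ± 0.21, adjusted p = 0.000407) was followed by a 9.11-fold rise to DTEP (3.12 ± 0.21, adjusted p = 1.26e-07), and LR was 5.13-fold above Control (2.31 ± 0.21, adjusted p = 1.32e-06). Its tandem neighbour ABCC12, 8825 bases away, also fell at the first step, from a mean of 10.2 to 3.67 (-1.27 ± 0.34, adjusted p = 0.00824), and stood at 4.19 in DTEP (adjusted p = 0.731). ABCC11 shares 289 exonic bases with LONP2 on the opposite strand, and the counting is not stated to use strand.

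The canalicular exporter ABCC2 and the basolateral exporter ABCC3 went down and stayed down. ABCC2 had 45.6, 48.7 and 49.1 in Control, 23.4, 21.1 and 31.6 in DTP, 4.16, 2.88 and 4.27 in DTEP and 4.22, 8.19 and 5.57 in LR. It passed at the first step (log2 -0.91 ± 0.23, adjusted p = 0.0058), fell 6.72-fold at the second (-2.46 ± 0.23, adjusted p = 1.93e-06), and was 7.97-fold lower in LR than in Control (-2.84 ± 0.23, adjusted p = 5.91e-07). ABCC3 had 309, 307 and 331 in Control, 131, 131 and 128 in DTP, 47.3, 31.3 and 8.92 in DTEP and 7.22, 11.1 and 55.4 in LR. The Control and DTP libraries of ABCC3 lay far apart, yet the change did not pass (-1.27 ± 0.64, adjusted p = 0.112), with the spread estimated over all 4 groups. The fall to DTEP was -2.39 ± 0.64 (adjusted p = 0.0053), -1.73 without DTEP replicate 3, and LR was 12.8-fold below Control (-4.15 ± 0.64, adjusted p = 0.000124). The DTEP values of ABCC3 stood in the library order of ESR1, as did those of ABCC1, ABCC4, ABCB6, ABCF1 and ABCF2, among others. Those of ABCC6, ABCC11, ABCG1, ABCA5 and ABCB10, among others, stood in the opposite order. How many of all genes stood in either order was not counted. In LR replicate 3 ABCC3 had 55.4, above all DTEP libraries, and ESR1 had 0.194. The part of the marker change in these values was not tested.

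ABCC4, or MRP4, a cyclic nucleotide and prostaglandin exporter, had 11.5, 10.7 and 10.2 in Control, 0.626, 0.592 and 0.518 in DTP, 7.03, 1.89 and 1.74 in DTEP and 2.91, 4.43 and 8.24 in LR. It was lowest in DTP, with no overlap, and it regained part of its level afterwards. The fall to DTP was 18.6-fold (log2 -2.90 ± 0.38, adjusted p = 7.98e-05) and the rise to DTEP 6.14-fold (1.34 ± 0.38, adjusted p = 0.00785). LR remained below Control (-1.02 ± 0.38, adjusted p = 0.0343), and this missed the threshold in 10 of 25 alternatives, among them edgeR (0.1), DESeq2 (0.0596) and the fit without LR replicate 1 (-0.73, adjusted p = 0.142). ABCC10, or MRP7, went the other way at first, from a mean of 48.5 in Control to 78.2 in DTP (0.68 ± 0.14, adjusted p = 0.00136), then fell to 25.0 in DTEP (-1.61 ± 0.14, adjusted p = 7.87e-07) and stood at 28.8 in LR. Of the channel regulators, ABCC8, the sulphonylurea receptor, had means of 5.18, 2.31, 1.15 and 4.27 and passed in no comparison by limma (LR against DTEP 1.11 ± 0.36, adjusted p = 0.0681), and ABCC9 had at most 3 reads in any library.

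**Figure D5:**
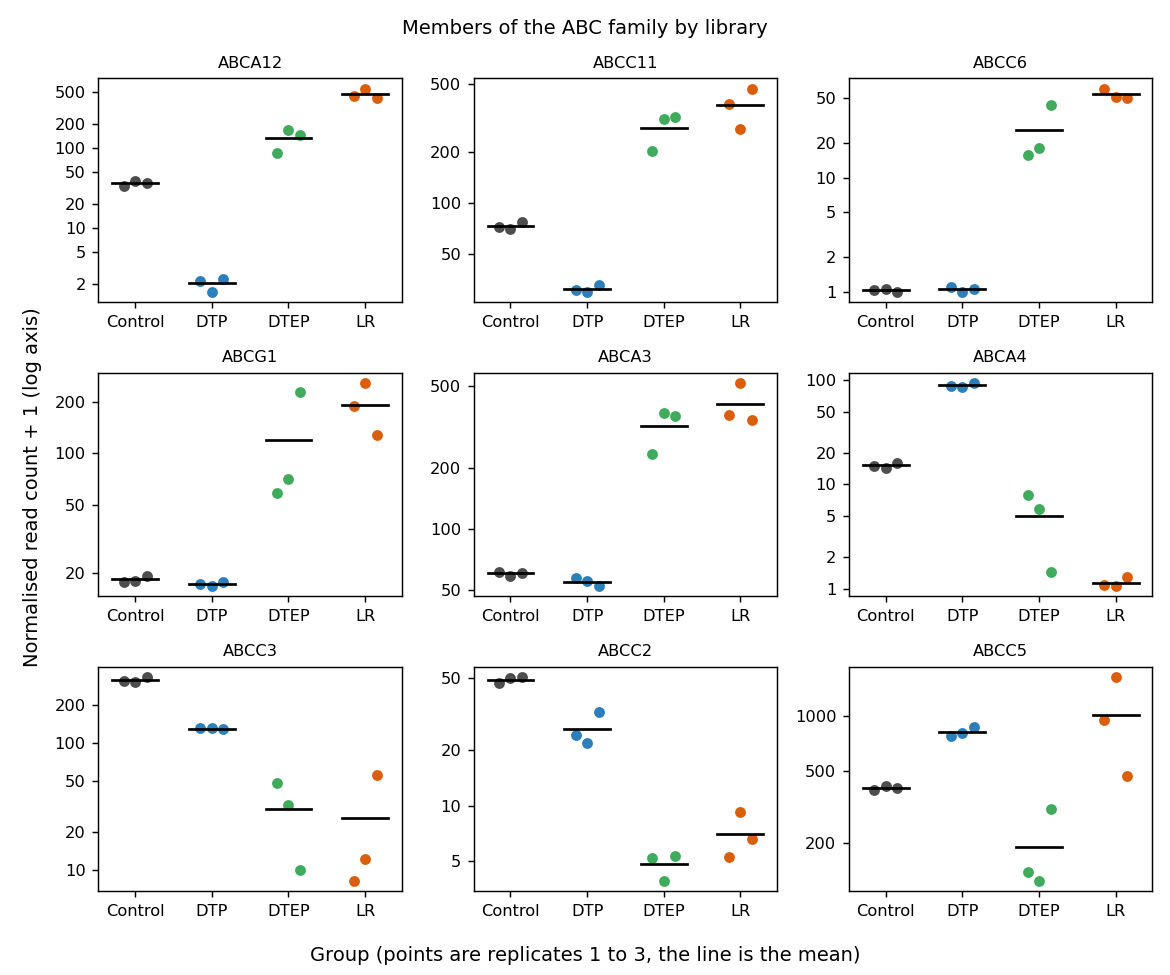
Normalised read count + 1 (log axes, each with its own range) of 9 called members by group, with a point for each library and a line at the mean. ABCA12, ABCC11, ABCC6, ABCG1 and ABCA3 are higher in DTEP and LR than in Control, ABCA4, ABCC3 and ABCC2 are lower, and ABCC5 is high in DTP and LR and low in DTEP.

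Among the lipid transporters of subfamily A, ABCA12 fell in DTP and then rose past its Control level. ABCA12 loads glucosylceramide into the lamellar granules of keratinocytes and lies at chromosome 2, 214931542 to 215138626. It had 32.7, 37.6 and 35.3 in Control, 1.200, 0.592 and 1.32 in DTP, 85.1, 165 and 144 in DTEP and 439, 546 and 416 in LR. No 2 groups overlapped. It fell 33.9-fold to DTP (log2 -4.17 ± 0.23, adjusted p = 1.69e-07), rose 126-fold to DTEP (5.98 ± 0.23, adjusted p = 2.38e-09) and 3.56-fold more to LR (1.87 ± 0.23, adjusted p = 0.00319), where it was 13.3-fold above Control (3.69 ± 0.23, adjusted p = 7.46e-08). The last step missed the threshold where only the 6 libraries compared were fitted (adjusted p = 0.266), a setting in which 0 of all genes passed.

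ABCA4, the retinoid flippase of photoreceptors (chromosome 1, 93992834 to 94121148), took the opposite course. Its values were 14.1, 13.4 and 15.1 in Control, 86.0, 85.4 and 92.9 in DTP, 6.84, 4.78 and 0.449 in DTEP and 0.0845, 0.0553 and 0.291 in LR. It was the single member called higher in DTP by limma, 6.2-fold (log2 2.55 ± 0.46, adjusted p = 0.000677), and then fell 21.9-fold to DTEP (-4.46 ± 0.46, adjusted p = 3.93e-06). The LR libraries held 2, 1 and 6 reads and lay below all Control libraries (-3.74 ± 0.46, adjusted p = 1.97e-05). The DTEP libraries of ABCA4 ran in the order of ESR1, 16.7, 6.88 and 0.842, while those of other members, such as ABCC6 and ABCG1, ran in the opposite order. The part of the marker change in this was not tested. The step from DTEP to LR passed (-1.82 ± 0.46, adjusted p = 0.0389) but missed the threshold in 14 of 25 alternatives. Among them were the replicate block (0.0527), the fit of only the 6 libraries (0.301, where 0 of all genes passed) and every fit without 1 library except that without DTEP replicate 3. That fit gave -2.56, and leaving out DTEP replicate 1 gave -1.35 (adjusted p = 0.124).

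ABCA2 and ABCA3 rose together at the step to DTEP. ABCA2, a sterol and sphingolipid transporter of endolysosomes (chromosome 9, 137007234 to 137028922), had 50.7, 46.7 and 53.9 in Control, 49.5, 39.9 and 41.9 in DTP, 145, 222 and 198 in DTEP and 221, 203 and 199 in LR. ABCA3, which loads phospholipid into the lamellar bodies of lung (chromosome 16, 2275881 to 2340728), had 60.7, 58.1 and 60.2 in Control, 56.7, 54.4 and 51.4 in DTP, 233, 371 and 356 in DTEP and 360.4, 518 and 343 in LR. For both, all DTEP and LR libraries were above all earlier ones, and DTEP and LR overlapped. The rise from DTP was 4.3-fold for ABCA2 (log2 2.06 ± 0.16, adjusted p = 3.66e-07), which was 1.93 without DTEP replicate 2 and 1.96 with median-of-ratios scaling, both below the threshold of 2. For ABCA3 it was 5.9-fold (2.51 ± 0.19, adjusted p = 3.56e-07). Per kilobase ABCA3 led subfamily A, with 9.04, 8.20, 48.4 and 61.6 in Control, DTP, DTEP and LR.

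Of the rest of subfamily A, ABCA5 went from a mean of 10.5 in Control to 22.5 in DTP (log2 1.00 ± 0.34, adjusted p = 0.0261), 32.2 in DTEP and 42.4 in LR (LR against Control 1.91 ± 0.34, adjusted p = 0.000389). ABCA10, its neighbour in an array of 5 genes on chromosome 17, had means of 0.278, 1.33, 0.645 and 1.37, and it shares 318 exonic bases with ABCA5. ABCA7, a phospholipid exporter, rose from 22.6 in Control to 45.3 in LR (0.95 ± 0.24, adjusted p = 0.00378). ABCA6, ABCA8, ABCA9 and ABCA13 stayed under 1 in mean in every group.

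The sterol exporters parted. ABCG1, which passes cholesterol to high-density lipoprotein (chromosome 21, 42199689 to 42297244), had 16.7, 16.9 and 18.2 in Control, 16.2, 15.6 and 16.5 in DTP, 57.0, 69.4 and 227 in DTEP and 187, 256 and 126 in LR. All DTEP and LR libraries were above all earlier ones, with DTEP replicate 3 inside the range of LR. ABCG1 was 7.32-fold higher in DTEP than in DTP (log2 2.51 ± 0.41, adjusted p = 0.000165), 1.90 and not called without DTEP replicate 3. It was 11-fold higher in LR than in Control (3.33 ± 0.41, adjusted p = 2.01e-05). ABCA1, which passes cholesterol to apolipoprotein A-I and shares its activation by liver X receptors with ABCG1, was scarce, with 81, 48, 38 and 9 reads summed over the libraries of Control, DTP, DTEP and LR. It was 9-fold lower in LR than in Control (-1.01 ± 0.24 on the log2(value + 1) scale, adjusted p = 0.00311). The liver and brain sterol exporters ABCG4, ABCG5 and ABCG8 had mean values of at most 0.163 in every group.

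The mitochondrial and lysosomal carriers of subfamily B were all expressed. ABCB10, a mitochondrial inner membrane carrier of erythroid haem synthesis (chromosome 1, 229516582 to 229558707), had 30.1, 28.2 and 27.5 in Control, 7.88, 8.98 and 14.5 in DTP, 36.4, 49.9 and 50.3 in DTEP and 45.5, 41.3 and 53.1 in LR. DTP was the low group and did not overlap the others. ABCB10 fell 2.74-fold to DTP (log2 -1.41 ± 0.21, adjusted p = 0.000198) and rose 4.36-fold to DTEP (2.05 ± 0.21, adjusted p = 4.12e-06), a change that ranged from 1.89 to 2.29 when single libraries were left out, with the lowest value without DTP replicate 1. It was also under 2 without DTP replicate 2, DTEP replicate 2 or DTEP replicate 3, and with median-of-ratios scaling (1.95). ABCB9, a lysosomal peptide carrier (chromosome 12, 122918610 to 122975114), had 11.9, 11.9 and 13.1 in Control, 8.19, 7.26 and 6.91 in DTP, 33.3, 41.3 and 35.4 in DTEP and 33.0, 38.0 and 24.4 in LR. Its rise to DTEP was 4.91-fold (2.15 ± 0.18, adjusted p = 7.46e-07), and LR stayed above Control (1.28 ± 0.18, adjusted p = 5.93e-05). ABCB9 shares 1590 exonic bases with ARL6IP4 and 1656 with OGFOD2 on the opposite strand, so reads of these genes cannot be told apart if strand was not used.

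ABCB6, a porphyrin carrier and the highest of subfamily B per kilobase (mean over groups 12.5), had 40.5, 39.7 and 45.1 in Control, 54.7, 52.4 and 45.0 in DTP, 42.5, 42.1 and 22.2 in DTEP and 19.6, 20.3 and 22.5 in LR. It went down late, and LR was 2.01-fold below Control (log2 -0.97 ± 0.22, adjusted p = 0.0019), with DTEP replicate 3 at the LR level. ABCB8, a mitochondrial carrier, went down at both early steps, from a mean of 76.2 to 49.1 and 27.6 (-0.63, adjusted p = 0.0134, and -0.82, adjusted p = 0.00182), and was 2.85-fold lower in LR (-1.51 ± 0.19, adjusted p = 2.02e-05). The bile salt exporter ABCB11 and the pigment-cell member ABCB5 had at most 1 read in any library.

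In subfamily D, ABCD4, a lysosomal cobalamin transporter, rose at the first step. It had 36.6, 38.2 and 38.5 in Control, 92.7, 88.3 and 79.9 in DTP, 59.7, 58.9 and 102 in DTEP and 80.1, 67.2 and 87.0 in LR. It passed in DTP (1.18 ± 0.19, adjusted p = 0.000359) and in LR against Control (1.02 ± 0.19, adjusted p = 0.000617), and its later groups overlapped. ABCD3, which imports branched-chain acyl-CoA into peroxisomes, fell from a mean of 77.1 to 46.5 in DTP (-0.75 ± 0.28, adjusted p = 0.0388) and overlapped Control again in DTEP, at 49.9, 101 and 58.8.

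The non-transporting members were among the most abundant at the start. ABCE1, which splits ribosomes after termination, had 152, 157 and 128 in Control, 47.6, 58.6 and 76.1 in DTP, 117, 177 and 63.2 in DTEP and 80.1, 71.0 and 83.5 in LR. It was lowest in DTP (log2 -1.27 ± 0.29, adjusted p = 0.00339), and the DTEP libraries ranged from the DTP level to above the Control level. ABCF1, a factor that binds the initiation factor eIF2 and ribosomes, had 185, 182 and 195 in Control, 251, 255 and 228 in DTP, 175, 164 and 87.8 in DTEP and 95.9, 129 and 108 in LR. It was lower in LR than in Control (-0.76 ± 0.22, adjusted p = 0.00965). ABCF2 fell more, from a mean of 138 in Control to 80.3 in DTEP and 51.2 in LR (LR against Control -1.43 ± 0.30, adjusted p = 0.00116). ABCF3 did not pass in any comparison by limma, with means of 105, 127, 130.4 and 115, and LR against Control was 0.13 ± 0.13. For ABCB6, ABCE1, ABCF1 and ABCF2 DTEP replicate 3 was the lowest DTEP library. Without it all 4 passed as lower in LR than in DTEP, as did 3874 of all genes.

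Neighbouring genes of the pathways were read from lists. Genes were named from a list for the size of their change, so they do not stand for the rest of it. Beside their counts, 25.2% of all tested genes passed higher and 28.8% lower in DTP, 35.7% and 32.6% from DTP to DTEP, 3.04% and 4.31% from DTEP to LR, and 30.2% and 32.6% between LR and Control. Of the sterol list, 16 of 20 genes were tested and 6 passed higher and 6 lower in DTP, then 5 and 6 from DTP to DTEP, 0 and 1 from DTEP to LR, and 4 and 6 between LR and Control. SREBF1, the regulator of lipid synthesis, went from 110 in Control to 26.1 in DTP and 374 in DTEP (log2 3.78 ± 0.24, adjusted p = 8.08e-08). It was the single gene of that list called higher from DTP to DTEP, while STARD3 (log2 -3.02) and SMPDL3A (-2.28) were called lower. Of the xenobiotic receptors and conjugation enzymes, 18 of 22 were tested. They split 7 higher and 1 lower in DTP, then 2 and 7 in DTEP, 0 and 0 from DTEP to LR, and 2 and 9 between LR and Control. The aryl hydrocarbon receptor AHR fell from a mean of 80.6 in Control to 26.1 in DTP and had 14.1 in LR (LR against Control -2.77 ± 0.42, adjusted p = 0.000119), and the glutathione transferase GSTM3 had means of 21.9, 56.2, 2.20 and 0 in the 4 groups.

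The same shares of all genes, 25.2% and 28.8%, 35.7% and 32.6%, 3.04% and 4.31%, and 30.2% and 32.6% over the 4 comparisons, stand beside the next lists. All 16 peroxisomal partners of subfamily D were tested, with 3 higher and 8 lower in DTP, then 10 and 1 from DTP to DTEP, 0 and 0 from DTEP to LR, and 8 and 2 between LR and Control. PPARA, a fatty acid receptor, had means of 1.77, 2.44, 34.7 and 54.6 (DTEP against DTP 3.17 ± 0.44, adjusted p = 4.51e-05), and its part in the changes of that list was not tested. Around ABCE1 and ABCF, 17 translation factors split 0 and 7, 8 and 4, 0 and 0, and 4 and 7 over the same comparisons, and EIF6, which keeps ribosomal subunits apart, had means of 644, 941, 198 and 92.7 (LR against Control -2.79 ± 0.31, adjusted p = 8.73e-06). Of the haem and iron-sulphur list, all 20 were tested and split 5 and 5, 6 and 5, 0 and 1, and 6 and 9. Of the lysosomal and lipid organelle list, 12 of 13 were tested and split 5 and 2, 6 and 3, 0 and 0, and 6 and 2, where TFEB, the lysosomal regulator, had means of 2.05, 4.52, 12.5 and 18.2 (LR against Control 2.65 ± 0.22, adjusted p = 6.15e-07).

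The drug uptake carriers of the SLCO and SLC22 families had 8 of 15 genes tested, with 3 higher and 1 lower in DTP, then 3 and 3 from DTP to DTEP, 1 and 0 from DTEP to LR, and 4 and 3 between LR and Control. Over all genes the shares were 25.2% and 28.8%, 35.7% and 32.6%, 3.04% and 4.31%, and 30.2% and 32.6%. The prostaglandin carrier SLCO2A1 had means of 0.473, 0.236, 24.0 and 78.5 in the 4 groups (DTEP against DTP 4.25 ± 0.41, adjusted p = 2.45e-06). Of the channel partners of ABCC8, ABCC9 and CFTR, 4 of 8 were tested and split 0 and 1, 2 and 0, 0 and 0, and 1 and 0. The anion exchanger SLC26A6 was the one that fell in DTP, from 37.2 to 20.3 (-0.86 ± 0.24, adjusted p = 0.0104). These list counts are by limma. For the lists with 0 and 0 from DTEP to LR, the counts at an unadjusted p below 0.05 were 1 higher and 6 lower (xenobiotic), 1 and 1 (peroxisomal), 0 and 3 (translation), 1 and 0 (lysosomal) and 1 and 1 (channel partners).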

How the data were processed

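RNA from BT474 cells was sequenced as stranded poly(A) libraries by the study. According to its methods, the authors aligned the reads to hg38 with Rsubread, counted RefSeq genes with default settings, which are not stated to use strand, and normalised the counts. The submitters' processing notes name edgeR without its role. The deposited signal is a normalised read count per gene and library, and 100% of the 199680 values above 0 were whole multiples of 1 read within 1e-06 of a read. Depth was 16383363 to 25030482 reads.

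The 13794 genes that reached a value of 1 in 3 or more libraries were fitted with limma 3.58.1 in R 4.3.3 on log2(value + 1), with all 12 libraries, 4 groups and a trend. The study also used limma after a log(x + 1) transform, of a base not given in the sources used here. This is a log2 scale that understates changes of low genes. Adjustment was by Benjamini-Hochberg over all tested genes, two-sided. The recovered reads were also fitted with edgeR 4.0.16 (TMM factors) and DESeq2 1.42.0. The code was tested on simulated data.

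Values were given in every library for ABCB1, ABCC1, ABCG2, each called member and the leading member of each subfamily per kilobase of canonical transcript. Members past an adjusted p of 0.05 with an absolute log2 change above 1 were named. Members, lists and tests were chosen with earlier results of these data known. Alternatives are in the closing section. Positions are RefSeq, GRCh38.p14, and exon overlaps GENCODE v44. Promoters of 35 of 46 members were found. Some genes are counted in the totals and not reported here by name.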

Additional observations from a re-analysis of the deposited data

How the results depend on the processing

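With a threshold of 1 instead of 2 on the absolute log2 change, members called higher and lower numbered 4 and 6 from Control to DTP, 7 were called lower from DTP to DTEP, 3 higher and 1 lower from DTEP to LR, and 11 and 7 for LR against Control. Over all genes these counts were, in the same order, 1274 and 2179, 2694, 200 and 345, and 2336 and 2699. From Control to DTP, 2 members were called higher with a pseudocount of 0.1, with edgeR, with DESeq2 and with edgeR without a filter (an alternative chosen after seeing the data). Beside them, 367, 487, 481 and 728 of all genes were called higher. With only the 6 libraries compared 10 members passed higher, beside 4880 of all genes. The step from DTEP to LR was the least stable. With only its 6 libraries, 0 members were called higher and 0 passed in either direction. In that setting 0 of all genes passed in either direction, so it could not single out members. Lower calls there were 1 with pseudocounts of 0.1 and 0.5, edgeR and DESeq2, and 2 with edgeR without a filter, beside 264, 114, 510, 624 and 602 of all genes. Members that passed lower were 0 without a filter on low values, 2 with edgeR and with DESeq2, and 3 with edgeR without a filter, beside 288, 1181, 2083 and 1426 of all genes. For LR against Control, edgeR without a filter called 7 lower, beside 2518 of all genes. Replicate numbers did not pair the libraries: deviations of same-numbered libraries from their group means correlated at -0.44 to 0.36, and 6 of 36 comparisons with another group were closest to the same number. The replicate block left 0 members passing lower in LR against DTEP (354 of all genes), where the fit without it had 1 (595 of all genes). It changed no other count by over 1.5 times. It took the adjusted p of ABCA4 to 0.0527 and of ABCC6 to 0.0517 in that comparison and of ABCC5 to 0.0678 from Control to DTP.

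Leaving out single libraries gave 0 to 1 members called higher, 1 to 8 passing higher, 0 to 1 called lower and 0 to 5 passing lower from DTEP to LR. The 8 and the 5 came without DTEP replicate 3, which stands apart, and there 2655 and 3874 of all genes passed. The ABCC1 change from DTEP to LR, 0.08, ranged from -0.0944 to 0.23 and changed sign without DTEP replicate 3 (-0.056) and without LR replicate 3 (-0.0944). The cause of these shifts was not tested. Over all alternatives, single-member changes kept direction and side of the threshold 1038 times, fell below it 59 times, rose past it 1 time (ABCC1 from Control to DTP, with only the 6 libraries compared) and turned sign 2 times. The losses were mostly of ABCC6 and ABCA4 from DTEP to LR, ABCC4 for LR against Control and ABCC5. The threshold of 1 is counted in the 1038 and in the 25 alternatives given for ABCC4, ABCC5, ABCC6 and ABCA4. For a single member it repeats the main fit, so it could show no shift. With median-of-ratios scaling the all-gene median shifted by -0.10 for DTEP against DTP, and ABCA2 and ABCB10 were no longer called higher there, nor ABCA2 for LR against Control. DESeq2 also did not call ABCA2 higher in DTEP.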

Other observations

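Members of the family under other symbols lay outside the naming rule. TAP1 and TAP2, which form the peptide transporter of antigen presentation, changed at different steps. TAP2 had 22.9, 23.5 and 21.7 in Control and 8.45, 9.08 and 8.81 in DTP (log2 -1.28 ± 0.32, adjusted p = 0.005), with overlap of Control and LR. TAP1 had 18.6, 21.0 and 17.7 in DTP and 7.32, 10.5 and 9.94 in DTEP (-0.98 ± 0.21, adjusted p = 0.00138), and it rose again to 17.4, 30.2 and 18.5 in LR (1.14 ± 0.21, adjusted p = 0.0139). Among the 8 genes of the peptide loading list, all tested, 4 passed higher and 0 lower from DTEP to LR, where 3.04% of all genes passed higher. ERAP2, a peptide-trimming peptidase, was the one called, from a mean of 6.14 to 34.8 (2.38 ± 0.36, adjusted p = 0.00624), and the others were TAP1, TAPBP and ERAP1. In the other comparisons the list split 3 and 1 from Control to DTP, 3 and 3 from DTP to DTEP, and 5 and 1 for LR against Control, where 25.2% and 28.8%, 35.7% and 32.6%, and 30.2% and 32.6% of all genes passed higher and lower. CFTR, the chloride channel, had a mean of 0.290 in Control and at most 0.0576 afterwards.

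Among the 9 other family genes of the table outside the rule, 4 were tested, TAP1, TAP2 and a pair of pseudogenes. They split 0 higher and 2 lower from Control to DTP, 1 and 2 from DTP to DTEP, 1 and 0 from DTEP to LR, and 1 and 1 between LR and Control (the shares of all genes are those above). The pseudogene ABCA17P starts 193 bases beyond the ABCA3 gene on chromosome 16, and it had a mean of 0.194 in DTP, 7.46 in DTEP and 7.69 in LR (DTEP against DTP 2.77 ± 0.24, adjusted p = 9.93e-07), the step at which ABCA3 rose. ABCA11P, a pseudogene that shares 1647 exonic bases with ZNF721, fell from a mean of 14.7 in Control to 7.75, 4.29 and 3.60 (LR against Control -1.78 ± 0.19, adjusted p = 5.14e-06).

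The members scattered more between the later libraries. The median SD of log2 values of the tested members over Control, DTP, DTEP and LR was 0.07, 0.11, 0.38 and 0.27, beside 0.07, 0.17, 0.33 and 0.20 for all tested genes.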
